A study of Mus musculus with 12 samples.

Results

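Heat shock proteins are molecular chaperones, which bind unfolded or newly made proteins and help them fold, refold or be removed. The transcription factor HSF1 drives the inducible cytosolic members when unfolded proteins accumulate in the cytosol, the unfolded protein response drives those of the endoplasmic reticulum, and the mitochondrial chaperonin folds proteins inside the mitochondrial matrix. In muscle stem cells these genes are also known to respond to the heat, enzymes and handling of cell isolation, together with immediate early genes such as Fos and Jun.

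The 10 genes described here were taken by symbol from the 22310 gene symbols of the count tables, and all 10 were above the low-count filter that left 13540 genes for testing. By role they were 6 HSF1-inducible cytosolic genes (Hspa1a, Hspa1b, Hsph1, Dnajb1, Hsp90aa1 and Hspb1), the constitutive cytosolic Hspa8, the endoplasmic reticulum chaperone Hspa5, and both parts of the mitochondrial chaperonin, Hspd1 and Hspe1.

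Levels came from RNA-seq of satellite cells, the stem cells of skeletal muscle, from hindlimb muscles of C57BL/6 mice. In all groups the muscles had been injured with barium chloride (50 µl of 1.2% over about 20 sites), and cells were profiled 3 days later. The 4 groups of 3 libraries were young wild type and young Hoxa9 knock-out (3 to 4 months), and old wild type and old Hoxa9 knock-out (22 to 28 months). Hoxa9 is a homeobox transcription factor, and the labels do not say which part of it was deleted, in which cells, or how many animals gave a library. The p-values therefore measure the spread between these libraries, which may be technical, and in bulk RNA fewer cells of a type cannot be told apart from less RNA per cell.

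The libraries held 4193433 to 20337015 gene reads each, of which the 10 genes took 0.254% to 0.686%. Levels are CPM, the usual scaling of gene counts to library size, here after trimmed-mean factors. The Hoxa9 level was 7.96 to 11.5 CPM (young wild type), 14.7 to 22.5 CPM (old wild type), 5.52 to 7.21 CPM (young knock-out) and 4.55 to 6.46 CPM (old knock-out), so its reads were fewer but not absent in the libraries labelled knock-out. All 12 satellite cell markers were detected in every group. Their summed level per library was 8194 to 9460 CPM (young wild type), 7692 to 8051 CPM (old wild type), 6344 to 9824 CPM (young knock-out) and 7162 to 8247 CPM (old knock-out). The 9824 CPM was in young knock-out 3, and the other young knock-out libraries held 6344 and 6858 CPM. Several libraries stood apart. Old knock-out 2 and 3 had male levels of Y-linked reads. Old wild type 2 and old knock-out 3 had 57.1% and 70.8% of their uniquely aligned reads outside genes. The gene Lars2 took 0.485% to 8.92% of gene reads in young knock-out and 0.646% to 25.0% in old knock-out. Its largest shares were in young knock-out 2 and old knock-out 3, against at most 0.11% in any wild-type library. In every knock-out comparison the Lars2 share and the genotype thus go together. Young knock-out 3 had the fewest gene reads, and its Myod1, a myogenic transcription factor, stood at 549 CPM against 74.1 to 219 CPM in the other 11 libraries. Mature myofibre markers summed to 4007 CPM in old knock-out 1, against 1011 to 2834 CPM in the other 11. The Spearman correlation, across genes, of a library's relative level with GC content was positive in each of the 6 wild-type libraries (0.230 to 0.476) and negative in each of the 6 knock-out libraries (-0.526 to -0.128). Genes are not independent replicates, so this is a description.

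The promoters were searched for the elements of both stress pathways. HSF1 binds heat shock elements, inverted repeats of GAA and TTC, and the unfolded protein response acts through the ER stress element. The sequences are from RefSeq (GRCm38.p6, another build than the mm9 of the counts) and 8 of the 10 genes had an entry. The 250 bases before each start were searched on both strands for 3 alternating units (GAANNTTCNNGAA or TTCNNGAANNTTC), for 2 units (GAANNTTC or TTCNNGAA, a part of the first, chosen after the 3-unit search) and for CCAAT, any 9 bases and CCACG. The 3-unit form was in 153 of 32851 promoters (0.466%), the 2-unit form in 4218 (12.8%) and the ER stress element in 37 (0.113%). A match is a description of the letters and not a measured binding site.

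The divergent pair Hspe1 and Hspd1 is shown because the same stretch of 4 alternating units, which holds 2 overlapping matches of the 3-unit form, lies before a start of each gene. The interval is chr1:55088053-55088082, read on the plus strand for Hspe1 (95 to 66 bases before its start) and on the minus strand for Hspd1 (from 150 bases before the second of its 2 annotated starts, which is 216 bases from that of Hspe1). The interval also lies in an annotated Hspd1 exon. Capitals mark the 4 units.
Hspe1: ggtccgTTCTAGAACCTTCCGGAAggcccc
Hspd1: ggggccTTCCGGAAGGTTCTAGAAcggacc

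Hspa5 is shown because it was the only one of the 8 genes with the ER stress element, 65 to 47 bases before its start, at chr2:34772020-34772049 on the plus strand, with the element and the bases inside it in capitals. That interval also lies in an annotated Hspa5 exon.
Hspa5: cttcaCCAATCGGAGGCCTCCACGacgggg

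Hspa1a and Hspa1b are shown because they are near-identical copies that the counts cannot fully separate. Their last 130 bases before the start are at chr17:34972157-34972286 and chr17:34959239-34959368, both on the minus strand, and 129 of the 130 bases were the same (99.2%). Over the full 250 bases 247 were the same (98.8%). Capitals mark the 2-unit match 104 to 97 bases before each start.
Hspa1a: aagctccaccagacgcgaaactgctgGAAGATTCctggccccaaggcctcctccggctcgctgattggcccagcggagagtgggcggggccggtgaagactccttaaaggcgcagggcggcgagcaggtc
Hspa1b: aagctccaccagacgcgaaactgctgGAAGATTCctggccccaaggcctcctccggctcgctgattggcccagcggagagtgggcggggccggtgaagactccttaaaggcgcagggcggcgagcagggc

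Hsph1 and Hspb1 are shown because they were the other 2 genes with a 2-unit match, in capitals, Hsph1 with 1 match at chr5:149636352-149636381 (minus strand) and Hspb1 with 2 matches at chr5:135887789-135887918 (plus strand). Of the 30 bases shown for Hsph1, 25 lie in an annotated Hsph1 exon. Dnajb1 had no match to any of these forms in the windows before its 2 starts.
Hsph1: tgggtagaatctTTCTCGAAggctcgagaa
Hspb1: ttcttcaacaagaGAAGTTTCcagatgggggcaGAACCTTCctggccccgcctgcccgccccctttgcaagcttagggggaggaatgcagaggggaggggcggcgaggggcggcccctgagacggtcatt

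Levels were compared between genes per length. Hspa5, which encodes BiP, the main HSP70 of the endoplasmic reticulum, was the most abundant, with a median over the 12 libraries of 528 CPM per kb of its longest transcript (lowest 424, highest 832). Hspa8, the constitutive HSP70 known as HSC70, followed at 190 CPM per kb (141 to 319), below Hspa5 in level with no overlap. The other 8 medians ran from 81.8 CPM per kb for Hsp90aa1 down to 47.8 for Hspa1a and, last, Hspb1, and the ranges of those genes over the libraries overlapped.

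That order depended on sequence shared with other genes. Of the 50-base windows of each transcript, 66.3% of Hspa1a and 62.3% of Hspa1b were also found in another gene, mostly in each other, and the shares were 58.5% for Hsp90aa1, 52.7% for Hspa8, 51.6% for Hspb1 and 44.8% for Hspd1, with pseudogene copies leading for Hspb1 and Hspd1. The share was 8.20% for Hspe1, 0.441% for Dnajb1 and 0 for Hspa5 and Hsph1. Per kb of sequence found in no other gene, a length chosen after these shares were seen, Hspa5 stood at 535 (430 to 843) and Hspa8 at 408 CPM per kb (303 to 685), so that on this length their ranges overlapped. Hspa1a and Hspa1b then stood at 144 and 154 CPM per kb, above Dnajb1 (82.0), Hspe1 (55.2) and Hsph1 (51.9). Reads with several alignments had an HTSeq summary line of their own, which belongs to no gene. That line held 1.27 to 7.54 per gene read, with 7.54 in old knock-out 3 and at most 3.485 in any other library. Whether any of these reads were also added to genes is unknown, so the levels of the genes with shared sequence are uncertain.

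**Figure D1:**
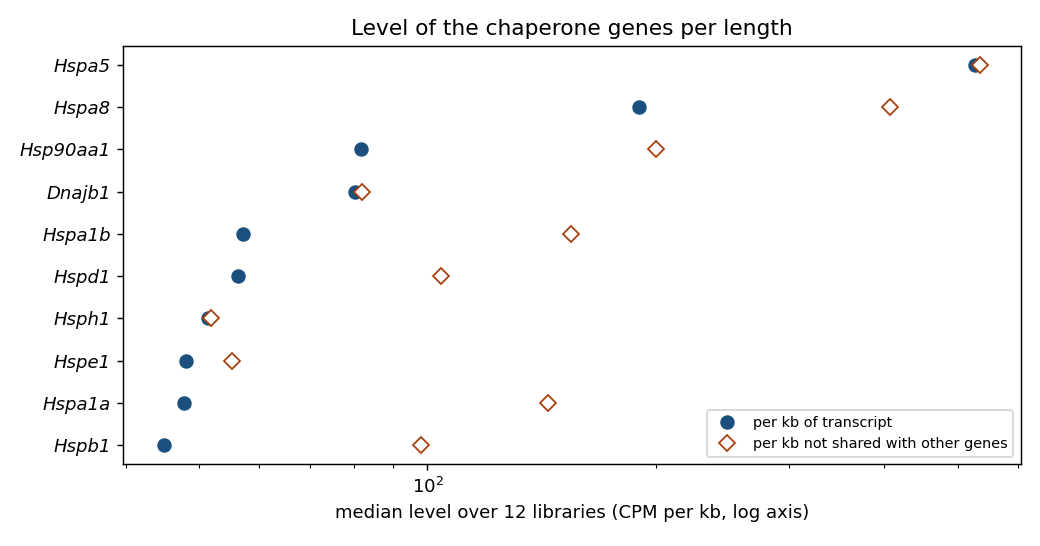
Median level over the 12 libraries (CPM per kb, log axis) of each chaperone gene, per kb of its longest transcript (filled circles) and per kb found in no other gene (open diamonds). Hspa5 and Hspa8 lead on both lengths, and Hspa1a moves from 47.8 to 144 CPM per kb.

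The inducible HSP70 genes Hspa1a and Hspa1b, which encode the classic stress-induced chaperone, had the widest range as a ratio of the highest to the lowest library. Hspa1a stood at 138, 222 and 194 CPM in the young wild-type libraries, 127, 65.2 and 136 CPM in the old wild-type ones, 145, 309 and 592 CPM in young knock-out, and 162, 62.4 and 74.1 CPM in old knock-out (libraries 1, 2 and 3). Hspa1b stood at 143, 244 and 232 CPM, 136, 69.5 and 142 CPM, 177, 407 and 707 CPM, and 186, 71.5 and 72.9 CPM in the same order. All 3 old wild-type libraries lay below all 3 young ones for both copies, by a narrow margin (136 against 138 CPM for Hspa1a and 142 against 143 CPM for Hspa1b), and the young knock-out libraries spread over most of the range, with library 3 the highest of all.

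Dnajb1, the HSP40 that hands unfolded proteins to HSP70, was lower in each old than in each young wild-type library. It stood at 281, 342 and 341 CPM in the young and 182, 144 and 168 CPM in the old ones. The knock-out libraries held 221, 388 and 506 CPM (young) and 260, 154 and 179 CPM (old). In the knock-out the ages overlapped, since old knock-out 1 lay above young knock-out 1.

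Hsph1, an HSP110 that releases ADP from HSP70, had the old knock-out libraries at the bottom and the young ones at the top. It stood at 231, 236 and 277 CPM in the young wild-type libraries, 253, 229 and 286 CPM in the old wild-type ones, 287, 288 and 528 CPM in young knock-out, and 186, 151 and 124 CPM in old knock-out. Every old knock-out library was below every other library, and every young knock-out library was above every wild-type library, 2 of them by a narrow margin.

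Hsp90aa1, the inducible cytosolic HSP90, ranged over 211 to 280 CPM in young wild type, 213 to 274 CPM in old wild type, 199, 316 and 475 CPM in young knock-out and 235 to 264 CPM in old knock-out, so that the groups overlapped. Hspb1, a small heat shock protein that holds unfolded clients, stood at 34.3, 52.6 and 39.4 CPM in the young wild-type libraries, 37.2, 29.1 and 44.3 CPM in the old wild-type ones, 43.3, 77.3 and 89.7 CPM in young knock-out, and 54.2, 35.9 and 40.4 CPM in old knock-out. Young knock-out 2 and 3 were the 2 highest libraries for Hspb1, and the other 10 overlapped.

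Hspa8 stood at 518 to 734 CPM in young wild type, 446 to 637 CPM in old wild type, 461 to 1008 CPM in young knock-out and 561 to 693 CPM in old knock-out. Hspa5 stood at 1750 to 2624, 1599 to 1947, 1558 to 3055 and 1648 to 2020 CPM in the same order. For both genes the ranges of all 4 groups overlapped.

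The mitochondrial chaperonin genes followed another order. Hspd1, which encodes the HSP60 barrel, stood at 83.1, 119 and 119 CPM in the young wild-type libraries, 151, 116 and 137 CPM in the old wild-type ones, 117, 157 and 142 CPM in young knock-out, and 142, 167 and 136 CPM in old knock-out. Hspe1, which encodes its HSP10 lid, stood at 26.1, 44.1 and 47.2 CPM, 38.1, 30.1 and 44.6 CPM, 49.6, 79.6 and 45.5 CPM, and 64.9, 60.6 and 61.0 CPM. Every old knock-out library was above every wild-type library for Hspe1, and of the young knock-out libraries only library 3 lay within the wild-type range.

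Libraries of a group tended to be high or low for many of the genes at once. Young wild type 1 and old wild type 2 were the lowest of their groups for all 10 genes. Young knock-out 1 was the lowest for 9 and young knock-out 3 the highest for 8, while old knock-out 1 was the highest for 7 and old knock-out 2 the lowest for 7. This order was not counted over all tested genes, so it cannot be called a trait of the chaperone genes. Old wild type 2 was also the lowest of its group for the summed immediate early genes and for each chaperone list given below. It had 20282 genes detected, against at most 16711 in any other library.

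**Figure D2:**
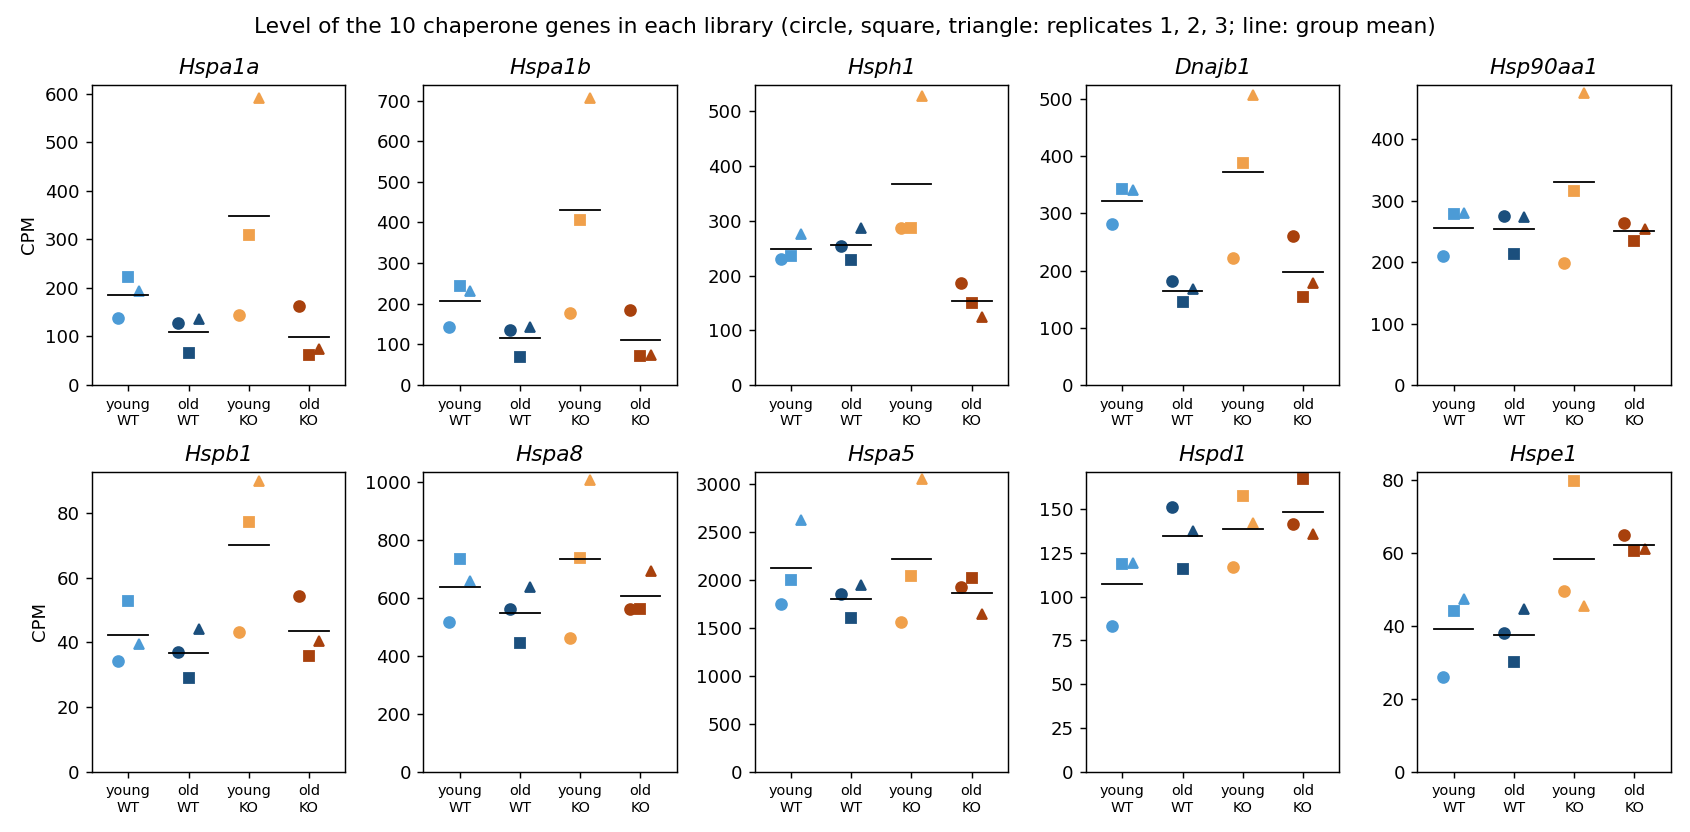
Level (CPM, linear axes from 0) of each of the 10 genes in each of the 12 libraries, by group. Circles, squares and triangles are replicates 1, 2 and 3 (the labels do not say that a number is shared between groups) and the line is the group mean. Dnajb1 is lower in old than in young wild type without overlap, the old knock-out libraries are the lowest for Hsph1, and young knock-out 3 is the highest of all libraries for 8 genes.

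The first comparison asked how age changes these genes in wild-type cells. By the quasi-likelihood F-test of edgeR none of the 10 passed the threshold, an adjusted p of 0.05, against 1.06% of all tested genes (0.258% higher and 0.805% lower in old). Only Dnajb1 had an unadjusted p under 0.05, against 14.2% of all genes, and DESeq2 called 1 of the 10 and limma-voom 0. Dnajb1 had a log2 fold change of -0.96 ± 0.26 (SE, adjusted p = 0.104 in edgeR), from 321 ± 35.0 to 165 ± 19.3 CPM (mean ± SD, n = 3). With DESeq2 its adjusted p was 0.0136, and in edgeR it was 0.00107 with only the 2 groups compared, 0.0313 without young knock-out 3 and 0.0244 without young knock-out 1, at log2 fold changes of -0.96 to -0.95. Hspa1a and Hspa1b had log2 fold changes of -0.76 ± 0.52 and -0.83 ± 0.54 (edgeR adjusted p = 0.573 and 0.544). Those 3 genes were the ones whose old libraries lay below the young ones, and 26.8% of all genes had groups that did not overlap in this comparison. Of the rest, Hsph1 and Hsp90aa1 had log2 fold changes of 0.05 ± 0.22 and -0.01 ± 0.24, and Hspd1 had 0.34 ± 0.17 (edgeR adjusted p = 0.394). The median log2 fold change of the 10 was -0.20 with 8 negative, beside 0.01 over all tested genes, and it was -0.47 over the 6 HSF1-inducible genes.

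Immediate early genes linked to cell isolation were measured in the same libraries. Of the 28 on that list, 27 had a negative log2 fold change with a median of -0.71, and 1 passed the test, Egr2, which was named after its values were seen (196 ± 24.6 to 72.6 ± 11.8 CPM). Their summed level was 7946 to 10020 CPM in the young and 4699 to 5563 CPM in the old wild-type libraries. Macrophage markers had a summed level of 30.2 to 60.3 CPM in the young and 176 to 201 CPM in the old libraries. All 14 were positive, none was at 0 in either group, and none passed in edgeR (8 at an unadjusted p under 0.05, 2 by DESeq2 and 7 by limma-voom). Of the 12 satellite cell markers 11 had a negative log2 fold change with a median of -0.33, and 2 passed the test, both lower. Fibroblast and fibro-adipogenic markers had 10 of 12 negative, with 4 past the test, all lower. Tendon markers had 8 of 9 negative with a median of -1.89, and 0 past the test in edgeR. The part of any of these lists in the chaperone levels was not tested.

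The second comparison asked the same of knock-out cells, which share no library with the first. Again none of the 10 passed in edgeR, and few genes did (0.0148% of those tested, all of them higher, and 0% lower). At an unadjusted p under 0.05 there were 5 of the 10 (Hspa1a, Hspa1b, Hsph1, Dnajb1 and Hspb1, each lower in old), against 9.72% of all genes. Hspa1a and Hspa1b share most of their sequence, so they are not 2 independent genes in that count. DESeq2 called 3 (Hspa1b, Hsph1 and Dnajb1) and limma-voom 0. Hsph1 went from 368 ± 139 CPM (young) to 153 ± 30.9 CPM (old), a log2 fold change of -1.26 ± 0.23 with an adjusted p of 0.0658 in edgeR. Without old knock-out 1 it was -1.43 (0.0277). Hsph1 was the only one of the 10 whose groups did not overlap, which 11.6% of all genes showed. Hspa1a and Hspa1b had log2 fold changes of -1.80 ± 0.54 and -1.96 ± 0.56 (edgeR adjusted p = 0.320 and 0.282), Dnajb1 had -0.91 ± 0.26 (0.269) and Hspb1 had -0.68 ± 0.27 (0.432). Hspd1 and Hspe1 had 0.10 ± 0.17 and 0.09 ± 0.25. The median of the 10 was -0.54 with 8 negative, beside -0.01 over all tested genes.

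Part of this difference lay in young knock-out 3. Without it the log2 fold change was -0.92 for Hsph1 (adjusted p = 0.0271 in edgeR), -1.20 for Hspa1a, -1.41 for Hspa1b and -0.63 for Dnajb1, and those of Hspa8 and Hspa5 turned to 0.0019 and 0.039. That library had a summed level of the 6 HSF1-inducible genes of 2897 CPM, against 710 to 1785 CPM in the other 11, and a summed level of the immediate early genes of 16604 CPM, against 4699 to 10020 CPM. Mature myofibre markers had 12 of 12 positive with age in knock-out, with 0 past the test in edgeR. They summed to 1691, 1418 and 1011 CPM (young) and 4007, 1313 and 1561 CPM (old). Macrophage markers had 13 of 14 negative, with 0 past the test in edgeR. Their sums were 194, 27.2 and 37.8 CPM (young) and 27.5, 24.5 and 103 CPM (old). The part of the immediate early genes and of these marker lists in the chaperone levels was not tested.

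**Figure D3:**
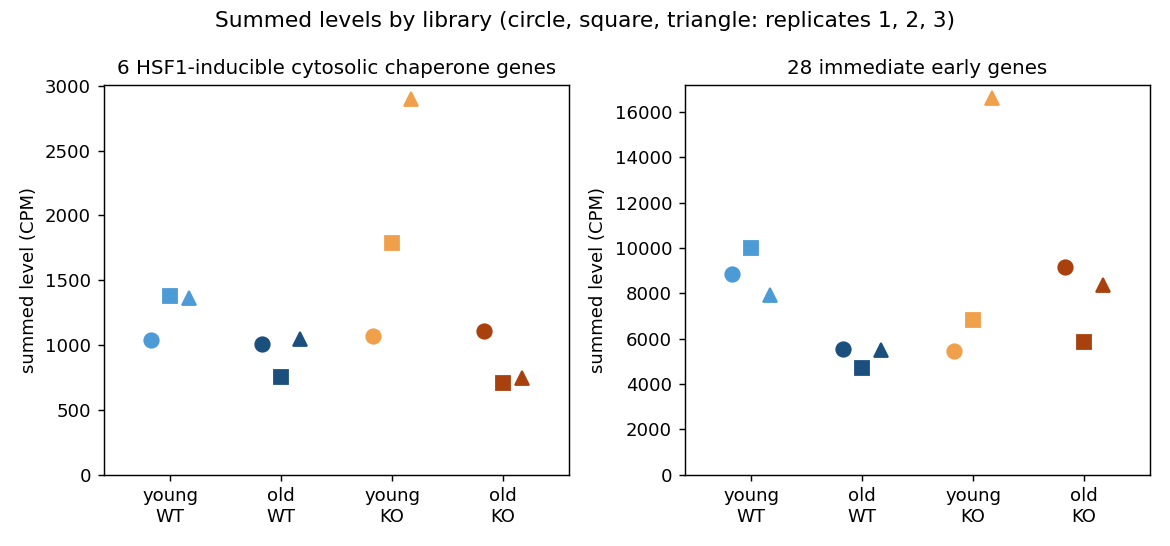
Summed level (CPM, axes from 0) of the 6 HSF1-inducible cytosolic genes and of 28 immediate early genes in each library, by group, with circles, squares and triangles for replicates 1, 2 and 3. Young knock-out 3 is the highest for both sums, and the old wild-type libraries lie below the young ones for the immediate early genes.

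The mean of both age effects was taken after those results were seen, so it is no independent support for them. For this average 1 of the 10 genes passed in edgeR, against 1.21% of all genes (0.34% higher and 0.871% lower). It was Dnajb1, which fell by 0.94 ± 0.19 on the log2 scale (adjusted p = 0.0314 in edgeR). Leaving out 1 library at a time gave -1.07 to -0.79 and an adjusted p of 0.00339 to 0.0931, with the 3 fits without young knock-out 1, young knock-out 3 or old knock-out 1 past the threshold and the other 9 not. Hspa1a and Hspa1b had -1.28 ± 0.38 and -1.39 ± 0.39 (edgeR adjusted p = 0.158 and 0.139).

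The third comparison asked how the loss of Hoxa9 changes these genes in old mice. Hsph1 was the 1 gene of the 10 to pass the test in edgeR, against 16.7% of all genes (9.52% higher and 7.21% lower). It fell from 256 ± 28.8 CPM in old wild type to 153 ± 30.9 CPM in old knock-out, by 0.74 ± 0.22 on the log2 scale (0.600-fold, adjusted p = 0.0400 in edgeR), and it was lower in 3 of 3 libraries. The call was near the threshold. It held in the 4 fits that left out young knock-out 1, 2 or 3 or old knock-out 1, and not in the 8 that left out any other library (adjusted p 0.00495 to 0.148). It was lost with offsets for GC content (-0.77, adjusted p = 0.0525), and was lost without the libraries with male reads (-0.46, 0.453), which leaves 1 old knock-out library assumed to vary like the other groups. It was also lost without both libraries with most reads outside genes (-0.67, 0.221) and without both with the largest Lars2 share (-0.58, 0.136). In the last fit the knock-out libraries that were kept still had larger Lars2 shares than any wild-type library.

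Hspe1 had the opposite sign and went from 37.6 ± 7.26 to 62.2 ± 2.36 CPM, with a log2 fold change of 0.72 ± 0.25 and an adjusted p of 0.0591 in edgeR. Its groups did not overlap, nor did those of Hsph1, as in 42% of all genes. DESeq2 called both (adjusted p = 0.0339 for Hspe1), Hspe1 also passed in edgeR without young wild type 1, young knock-out 2 or young knock-out 3 (0.0295 to 0.0336), and at an unadjusted p under 0.05 there were the same 2. The other 8 genes had log2 fold changes between -0.14 ± 0.53 (Hspa1a) and 0.26 ± 0.26 (Dnajb1). The median of the 10 was 0.09, beside -0.01 over all tested genes. In these groups the macrophage markers were lower in knock-out (summed 24.5 to 103 CPM against 176 to 201 CPM, 5 of 14 past the test) and the immediate early genes had a median log2 fold change of 0.50 with 1 of 28 past the test. Choroid plexus markers, which mark a tissue of the brain, were also lower in knock-out, with 9 of 10 past the test in edgeR, 9 by DESeq2 and 1 by limma-voom. Their summed level was 43.9 to 70.6 CPM against 147 to 3515 CPM, with Ttr and Otx2 at 0 reads in knock-out. Aqp1 overlapped, at 25.5 to 57.1 CPM in old knock-out and 29.2 to 44.1 CPM in old wild type. Tendon markers were higher, with 7 of 9 past the test and 415 to 1476 CPM against 225 to 280 CPM. Fibroblast and fibro-adipogenic markers had 11 of 12 positive with a median of 0.70, and 2 higher past the test. Their summed level was 6519 to 10402 CPM in old knock-out against 5454 to 6587 CPM in old wild type. Of the 12 satellite cell markers 1 was higher and 1 lower past the test. The part of these lists in the result for Hsph1 was not tested.

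In young mice none of the 10 genes passed in edgeR, against 20.9% of all genes (10.9% higher and 10% lower), although all 10 had a positive log2 fold change with a median of 0.47, beside -0.02 over all tested genes. At an unadjusted p under 0.05 there were 4 (Hsph1, Hspb1, Hspd1 and Hspe1), against 35.7% of all genes, while DESeq2 called 2 (Hsph1 and Hspb1) and limma-voom 0. Hsph1 had a log2 fold change of 0.57 ± 0.22 (adjusted p = 0.0868 in edgeR) and was the only one of the 10 whose groups did not overlap, as in 35.7% of all genes. Hspb1 stood at 42.1 CPM in wild type and 70.1 ± 24.0 CPM in knock-out, a log2 fold change of 0.73 ± 0.27 (edgeR adjusted p = 0.0681). Hspe1 and Hspd1 had 0.58 ± 0.25 (0.107) and 0.37 ± 0.17 (0.129), and Hspa1a and Hspa1b had 0.91 ± 0.52 (0.248) and 1.06 ± 0.54 (0.192).

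Marker lists of other cell types also differed between the young groups. Choroid plexus markers were lower in young knock-out, with 9 of 10 past the test in edgeR, 10 by DESeq2 and 2 by limma-voom. Their summed level was 21.6 to 51.4 CPM against 1616 to 6115 CPM in young wild type, with Ttr, Kcne2 and Otx2 at 0 reads in knock-out. Mature myofibre markers had a negative log2 fold change for 12 of 12, with 1 past the test in edgeR and summed levels of 1011 to 1691 CPM against 1755 to 2768 CPM. Tendon markers had 8 of 9 positive with 0 higher and 1 lower past the test, and 641 to 892 CPM against 335 to 712 CPM. Macrophage markers had 12 of 14 positive and 0 past the test in edgeR (1 at an unadjusted p under 0.05, 1 by DESeq2 and 0 by limma-voom). Their summed level was 194, 27.2 and 37.8 CPM in young knock-out 1, 2 and 3, against 30.2 to 60.3 CPM in young wild type, so only library 1 lay above the wild-type range. Fibroblast and fibro-adipogenic markers had 7 of 12 negative, with 1 higher and 2 lower past the test, and 6732 to 8174 CPM against 9896 to 12150 CPM. Of the 28 immediate early genes 1 was higher and 4 lower past the test, with a median of 0.09. Satellite cell markers had 7 of 12 negative, with 0 higher and 3 lower past the test, and 6344 to 9824 CPM against 8194 to 9460 CPM. The part of these lists in the chaperone levels was not tested.

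The chaperone values in young mice also leaned on young knock-out 3. Without it the log2 fold change was 0.34 for Hspa1a, 0.54 for Hspa1b and 0.26 for Hsph1, and those of Hspa8 and Hspa5 turned to -0.048 and -0.20. For Hspe1 it was 0.77 with an adjusted p of 0.0417 in edgeR. Without young knock-out 1, in contrast, 3 of the 10 genes passed in edgeR, Hsph1 (0.72, 0.0437), Hsp90aa1 (0.62, 0.0364) and Hspb1 (0.99, 0.00958), and without old knock-out 1 Hspb1 passed (0.78, 0.0468).

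**Figure D4:**
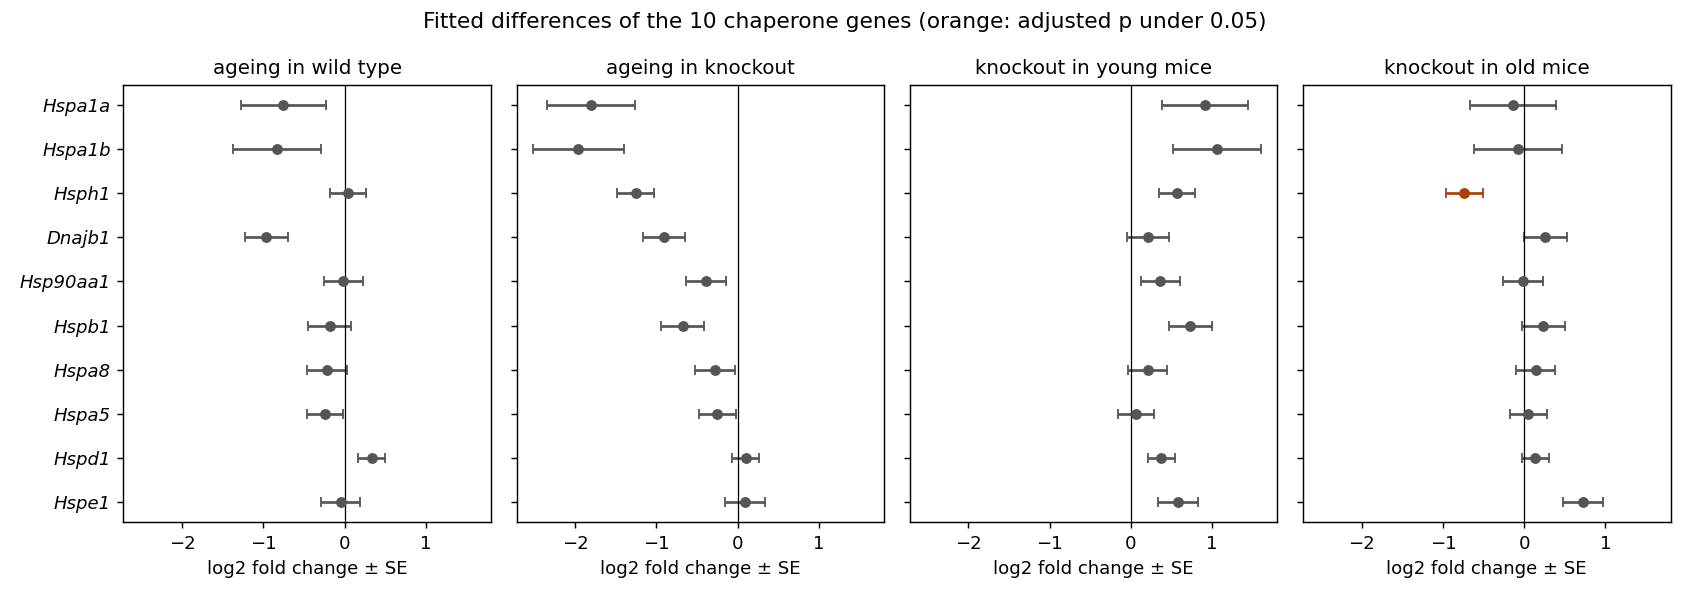
Log2 fold change ± SE of each of the 10 genes in the 4 comparisons between groups (old minus young, knock-out minus wild type; edgeR, all 12 libraries in 1 fit). Hsph1 in old mice, in orange, is the 1 value past an adjusted p of 0.05.

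GC content bears on the knock-out comparisons, because the trend of level with GC content had opposite signs in the wild-type and the knock-out libraries. The transcripts of Hspb1 (61.7% GC), Hspa1a (58.9%) and Hspa1b (58.1%) are GC-rich, and those of Hsp90aa1 (43.7%), Hspe1 (45.5%) and Hspa5 (45.6%) lie below the median of all genes, 48.8%. With an offset per library for GC content the log2 fold change of Hspb1 in young mice went from 0.73 to 1.23 (adjusted p = 0.0107 in edgeR, 1 of the 10 past the threshold against 6.61% of all genes), that of Hspa1a from 0.91 to 1.34 and that of Hspa1b from 1.06 to 1.47. That of Hspe1 went from 0.58 to 0.41 in young and from 0.72 to 0.60 in old mice.

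**Figure D5:**
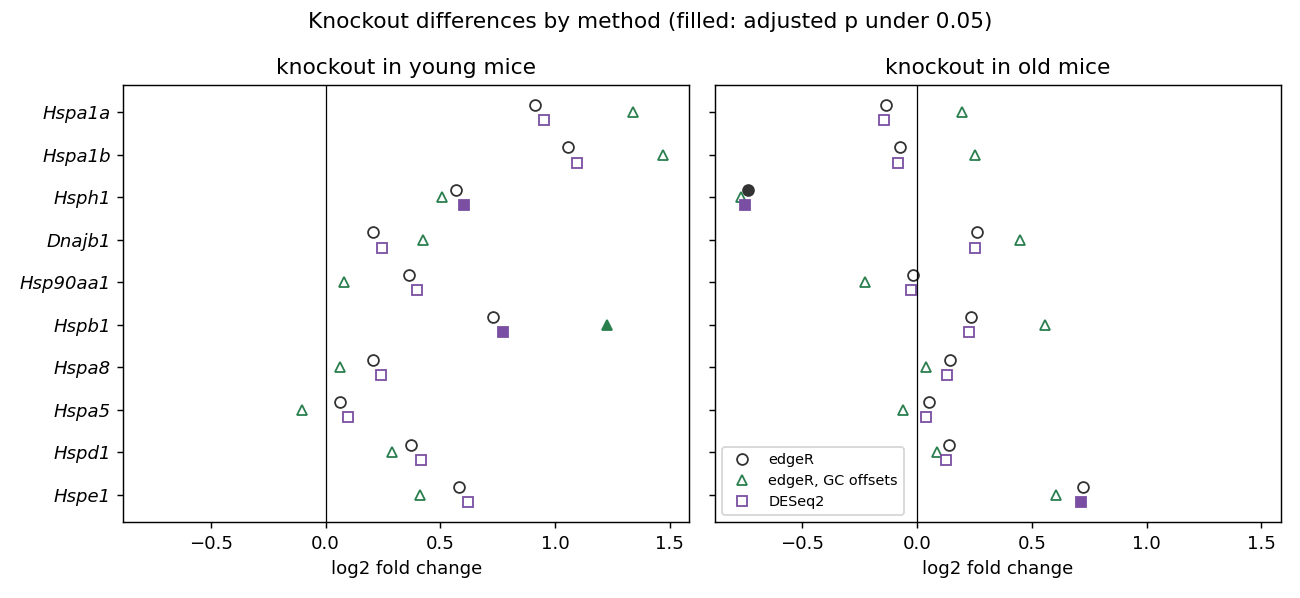
Log2 fold change (knock-out minus wild type) of each gene in young and old mice by edgeR (circles), edgeR with offsets for GC content (triangles) and DESeq2 (squares), filled where the adjusted p is under 0.05. With the offsets the call for Hsph1 in old mice is lost and Hspb1 in young mice, at 1.23, is past the threshold.

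The mean of both knock-out effects, also taken after the results were seen, had 1 of the 10 genes past the test in edgeR, against 35% of all genes (18% higher and 17% lower). It was Hspe1, which rose by 0.65 ± 0.17 on the log2 scale (adjusted p = 0.0113 in edgeR). The call held in 12 of the 12 fits without 1 library (adjusted p 0.00384 to 0.0295) and was lost with GC offsets (0.51, 0.062). With those offsets 1 of the 10 also passed, against 20.9% of all genes, but it was another gene, Hspb1 (0.89, adjusted p = 0.00298 in edgeR).

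Whether the age effect differed between genotypes was tested as the interaction. None of the 10 genes passed in edgeR, as few did (0.0148% of those tested). Hsph1 was the 1 gene with an unadjusted p under 0.05, against 9.72% of all genes, with an interaction of -1.30 ± 0.32 on the log2 scale (unadjusted p = 0.00116, adjusted p = 0.289 in edgeR). DESeq2 called it at an adjusted p of 0.0201 and limma-voom called 0. Without young knock-out 3 the interaction for Hsph1 was -0.97 (adjusted p = 0.0623 in edgeR). For Dnajb1 it was 0.05 ± 0.37, and for Hspa1a and Hspa1b it was -1.05 ± 0.74 and -1.13 ± 0.76.

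The factors that drive the inducible genes were measured too. Hsf1, the main activator of the heat shock response, was lower in knock-out at both ages. The wild-type libraries held 80.7, 91.0 and 79.9 CPM (young) and 77.2, 90.1 and 86.7 CPM (old), and the knock-out libraries 68.1, 57.2 and 61.9 CPM (young) and 67.9, 66.4 and 51.1 CPM (old), with no overlap between genotypes. It fell by 0.42 ± 0.14 in young (adjusted p = 0.0399 in edgeR) and by 0.45 ± 0.14 in old mice (0.0391) on the log2 scale, and both calls were lost with GC offsets, at -0.16 (0.513) and -0.22 (0.328). Hsf2, a second HSF that can pair with HSF1, went from 24.3 ± 2.71 CPM to 34.8 ± 3.95 CPM with knock-out in young mice. Its log2 fold change was 0.52 ± 0.14 in young mice (adjusted p = 0.0178 in edgeR) and 0.25 ± 0.14 in old mice (0.219), but with GC offsets it turned to -0.28 and -0.39, so its direction is not settled. With age Hsf1 had log2 fold changes of 0.01 ± 0.13 in wild type and -0.01 ± 0.14 in knock-out, and Hsf2 had 0.17 ± 0.14 and -0.10 ± 0.14.

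Beyond the 10 genes, 136 tested genes were on 10 lists of chaperones, co-chaperones and stress regulators. None passed with age in wild type, in knock-out or for the interaction in edgeR. At an unadjusted p under 0.05 there were 11, 8 and 5, against 14.2%, 9.72% and 9.72% of all genes, and DESeq2 called 4, 1 and 0 and limma-voom 3, 0 and 0. By knock-out 18 of the 136 passed in old mice (13.2%; 8 higher, 10 lower), against 16.7% of all genes, and 29 in young mice (21.3%; 16 higher, 13 lower), against 20.9%. With GC offsets 7 and 8 passed (5.15% and 5.88%), against 7.64% and 6.61% of all genes, and 5 at each age were among the calls without them. The shares of the 136 genes were thus near or below those of all genes. Of the genes named below, those that passed in both fits were Dnajc8, Dnajc10, Eif2ak3, Derl1 and Afg3l2 in old and Cdc37, Dnaja1, Syvn1, Ddit3 and Afg3l2 in young mice, and each other call below was lost with GC offsets.

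The cytosolic HSP70 partners include other HSP70 and HSP110 genes, DNAJ co-chaperones, and BAG family and other co-chaperones. On the list of other HSP70 and HSP110 genes 1 of 7 passed at each age, Hspa4l, a relative of Hsph1, which rose by 0.72 ± 0.17 in old (edgeR adjusted p = 0.0138) and 0.65 ± 0.17 in young knock-out (0.0169). With GC offsets those were 0.28 and 0.07, neither past the threshold. Of the 23 DNAJ genes listed here 2 passed in old and 2 in young mice. Dnaja1, an HSP40 co-chaperone of HSP70, rose from 37.2 ± 2.61 to 54.8 ± 4.94 CPM in old mice (log2 fold change 0.55 ± 0.15, and 0.20 with GC offsets, adjusted p = 0.405 in edgeR) and from 37.4 ± 4.36 to 74.2 ± 13.8 CPM in young mice (0.99 ± 0.15, edgeR adjusted p = 0.00137, and 0.53 with GC offsets, 0.0456). Dnajc8 fell by 0.52 ± 0.13 in old knock-out (-0.70 with GC offsets, 0.0153) and Dnaja2 rose by 0.48 ± 0.14 in young knock-out (0.12 with GC offsets, 0.656). The next list held 8 genes, the BAG family with Hspbp1 and St13. Of these Bag6 fell by 0.55 ± 0.14 in old and by 0.81 ± 0.14 in young knock-out, and Bag4 rose by 0.68 ± 0.16 in young knock-out. With GC offsets Bag6 had -0.20 (edgeR adjusted p = 0.295) and -0.34 (0.0926) and Bag4 had 0.41 (0.164), none past the threshold.

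HSP90 and its co-chaperones went both ways. Of 17 genes on the list 2 were lower in old knock-out, beside 16.7% of all genes past the threshold. In young knock-out 4 were higher and 5 lower, or 9 of 17, beside 20.9%. The medians were -0.28 and -0.20. Hsp90ab1, the most abundant on the list, was named after its values were seen. It stood at 2970 to 3275 CPM in young wild type and 1657 to 2679 CPM in young knock-out. In old mice it stood at 2583 to 3265 and 1988 to 2446 CPM. The genotypes did not overlap at either age, as in 35.7% (young) and 42% (old) of all genes. Cdc37, which brings kinases to HSP90, fell from 191 ± 21.0 to 95.3 ± 23.4 CPM in young mice (by 1.01 ± 0.18 on the log2 scale, edgeR adjusted p = 0.00276) and was also past the threshold with GC offsets (-0.90, 0.0139). In old mice it fell by 0.70 ± 0.18 (0.0224), with the call lost with GC offsets (0.0616). Sgta fell by 0.79 ± 0.12 in young and 0.51 ± 0.12 in old knock-out, and Stub1, a ubiquitin ligase that acts on chaperone clients, fell by 0.66 ± 0.14 in young knock-out. Ppid rose by 0.63 ± 0.14 and Cdc37l1 by 0.54 ± 0.15 in young knock-out. With GC offsets none of these calls was kept: Sgta had -0.33 in young (edgeR adjusted p = 0.120) and -0.16 in old mice (0.428), Stub1 -0.17 (0.504), Ppid 0.19 (0.448) and Cdc37l1 0.12 (0.671). Chordc1 had 0.65 ± 0.15 there (adjusted p = 0.00787), but its sign turned with GC offsets (-0.20).

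Small heat shock proteins hold unfolded clients, and the TRiC chaperonin folds actin and tubulin with the help of prefoldin. Of the 7 other small heat shock proteins 6 had a negative log2 fold change in old and 5 in young knock-out, and 1 passed, Hspb6, which fell from 7.75 ± 0.679 to 2.75 ± 1.11 CPM in young mice (a call lost with GC offsets, -1.25, adjusted p = 0.126 in edgeR). Cryab, the most abundant of them, had -0.08 ± 0.52 in old mice. Of the 13 subunits of the TRiC chaperonin and prefoldin 10 were positive in old and 9 in young knock-out, with medians of 0.22 and 0.21. Vbp1, a prefoldin subunit, rose by 1.12 ± 0.20 in old knock-out and from 30.1 ± 3.80 to 59.7 ± 18.8 CPM in young knock-out, and Cct6a rose by 0.45 ± 0.14 in young knock-out. With GC offsets Vbp1 had 0.43 and 0.12 and Cct6a 0.40, none past the threshold.

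In the endoplasmic reticulum Hspa5 had log2 fold changes of 0.05 ± 0.22 and 0.06 ± 0.22 by knock-out in old and young mice, and of 23 other genes of that compartment 2 passed in old and 3 in young mice. Dnajc10, an HSP40 and disulfide reductase, rose to 184 ± 35.1 CPM in old knock-out (log2 fold change 0.88 ± 0.16, edgeR adjusted p = 0.0046, and 0.73 with GC offsets, 0.0202) and by 0.65 ± 0.16 in young knock-out (0.45 with GC offsets, 0.117). Ero1l, an oxidase that drives disulfide formation, rose by 0.46 ± 0.14 in old and 0.74 ± 0.14 in young knock-out, and Hyou1, an HSP110-like chaperone of the compartment, fell by 0.47 ± 0.15 in young knock-out. With GC offsets Ero1l had 0.14 (edgeR adjusted p = 0.605) and 0.32 (0.244) and Hyou1 had -0.26 (0.360), none past the threshold.

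Among 17 signalling genes of the unfolded protein response 4 passed in old and 3 in young mice. Syvn1, a ubiquitin ligase that removes misfolded proteins from the endoplasmic reticulum, fell by 0.76 ± 0.14 in old (edgeR adjusted p = 0.00436, and -0.44 with GC offsets, 0.0724) and by 0.94 ± 0.14 in young knock-out (0.00104, and -0.55 with GC offsets, 0.0359). Of the 3 sensors, Eif2ak3, which encodes PERK, rose by 0.59 ± 0.16 and Ern1, which encodes IRE1, fell by 0.64 ± 0.18 in old knock-out, and Atf6 rose by 0.57 ± 0.17 in young knock-out. With GC offsets Eif2ak3 had 0.73 (edgeR adjusted p = 0.0273), while Ern1 with -0.53 (0.0860) and Atf6 with 0.43 (0.133) were no longer past the threshold. Derl1 rose by 0.37 ± 0.11 in old knock-out (0.43 with GC offsets, 0.0451). Ddit3, which encodes CHOP, fell by 0.73 ± 0.18 in young knock-out (-0.89 with GC offsets, 0.0198).

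Of 18 other mitochondrial chaperones and proteases 1 was higher and 3 lower in old knock-out, and 2 were higher and 2 lower in young knock-out, or 4 of 18 at each age beside 16.7% and 20.9% of all genes. Yme1l1, an inner-membrane protease, rose by 0.83 ± 0.19 in old and 0.82 ± 0.19 in young knock-out, and Afg3l2, another one, fell by 0.66 ± 0.15 and 0.53 ± 0.15. The calls for Afg3l2 held with GC offsets (-0.68 and -0.58, adjusted p = 0.0239 and 0.0455 in edgeR), and those for Yme1l1 did not (0.30 and 0.13, adjusted p = 0.217 and 0.633). Grpel1 and Htra2 each fell by 0.51 in old knock-out, Clpx rose by 0.49 ± 0.14 and Clpb fell by 0.59 ± 0.16 in young knock-out. With GC offsets those 4 calls were lost, at -0.54 for Grpel1 (edgeR adjusted p = 0.0539), -0.16 for Htra2 (0.609), 0.27 for Clpx (0.277) and -0.38 for Clpb (0.178).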

How the data were processed

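The 12 libraries are total RNA-seq of satellite cells. The authors deposited whole-number counts per gene symbol without normalization. TopHat, HTSeq and DESeq2 were used with build mm9, per the submitters' processing notes; per the labels' protocols the kit was stranded, and the strand setting and versions are not given in the sources used here. The HTSeq summary lines, which belong to no gene, were left out (reads outside genes, 32.2% to 70.8% of uniquely aligned reads, were among them).

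Genes were filtered with filterByExpr, scaled by TMM and fitted over all 12 libraries with 1 mean per group by edgeR's robust quasi-likelihood F-test (edgeR 4.0.16 in R 4.3.3). Benjamini-Hochberg adjustment ran over 13540 genes, with a threshold of 0.05. SE is the log2 fold change divided by the square root of F. Alternatives were DESeq2 1.42.0, limma-voom (3.58.1), other scaling and filters, GC offsets (splines with 5 degrees of freedom, GENCODE M21; 90.0% of tested genes had a value, the others had no offset), a replicate block, and libraries left out. The code was tested on simulated data. Depth limits the low genes most: the 10 genes had 11297 to 70418 reads per library in sum. Of these Hspb1 had 139 to 708 and Hspe1 had 183 to 906 reads per library.

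The members, lists and naming rule were chosen with earlier results of these data known: all 10 members, Hsf1 and Hsf2, up to 3 genes per list and direction with the smallest adjusted p and a mean log2 CPM over 1, or else the most abundant gene. The 2 averaged contrasts were added after values were seen.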

Additional observations from a re-analysis of the deposited data

How the results depend on the processing

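Counts of the 10 genes past the threshold moved with the method. For age in wild type the count of 0 became 1 with DESeq2 and 1 with only the groups compared, and was 0 to 1 when 1 library was left out. For knock-out in old mice the count of 1 became 2 with DESeq2, 2 with only the groups compared, 2 with GC and length offsets, and 0 with GC offsets, without both male libraries, without both libraries with most reads outside genes and without both with the largest Lars2 share (0 to 2 without 1 library). For knock-out in young mice the count of 0 became 2 with DESeq2 and 1 with GC or GC and length offsets (0 to 3 without 1 library). For age in knock-out it became 3 with DESeq2 and 1 with no filter (0 to 1), and for the interaction 1 with DESeq2 (0 in every fit without 1 library). For the averaged age effect 1 became 4 with DESeq2, 2 with no filter and 0 without the male libraries, those with most reads outside genes or those with the largest Lars2 share (0 to 1). For the averaged knock-out effect 1 became 2 with DESeq2, with GC and length offsets and without the male libraries (1 to 2), and with GC offsets the 1 gene was Hspb1 in place of Hspe1. Fits that leave 1 library in a group assume that it varies like the others. The cause of these moves was not tested.

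The labels do not say whether a replicate number is shared between groups. Same-numbered libraries deviated together with r of -0.261 to 0.231 and others with -0.345 to 0.309. With 3 libraries per group these values cannot decide whether the libraries were paired. With the replicate block the count was 0 for the averaged age effect. With the replicate block and GC offsets together it was 0 for knock-out in old and 1 in young mice. Hsph1 in old mice had -0.71 with the block (edgeR adjusted p = 0.0497).

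A change of sign between 2 values neither past the threshold and within 1 SE was not counted as a reversal. In old knock-out Hspa1a and Hspa1b turned to 0.57 and 0.69 without the male libraries, Hspa8, Hspa5 and Hspd1 to -0.13, -0.19 and -0.10 with library size only, and Hsf2 to -0.39, -0.38 and -0.38 with GC offsets, GC offsets and block, and GC and length offsets. In young knock-out those 3 settings gave -0.28, -0.28 and -0.26 for Hsf2 and -0.20, -0.19 and -0.23 for Chordc1, and the last gave -0.072 for Hspa4l. With age in knock-out Hsbp1 turned to -0.041 with GC and length offsets and Serpinh1 to 0.17 without the Lars2 libraries. In the averaged knock-out effect Hsph1 turned to 0.081 without the Lars2 libraries, Hsp90aa1 to -0.0065 with library size only and to -0.075, -0.090 and -0.048 with the GC settings, Hspa8 to -0.013 and Hspa5 to -0.11 with library size only. Without 1 library, Hspa8 ranged from -0.048 to 0.45 and Hspa5 from -0.20 to 0.26 for knock-out in young mice, and for age in knock-out Hspa8 from -0.53 to 0.0019, Hspa5 from -0.45 to 0.039, Cryab from -1.03 to 0.42 and Atf4 from -0.51 to 0.22. For the interaction Bag3 ranged from -0.66 to 0.23 and Cryab from -0.95 to 0.48. Each of these 8 turned without young knock-out 3.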

Other observations

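With age the other mitochondrial chaperones and proteases lay mostly above 0 in both genotypes, which share no library: 15 of 18 had a positive log2 fold change in wild type (median 0.21) and 15 of 18 in knock-out (median 0.17), beside medians of 0.01 and -0.01 over all tested genes. None passed an adjusted p of 0.05 in edgeR, DESeq2 or limma-voom in either comparison, and 2 in each had an unadjusted p under 0.05. Hspa9, the mitochondrial HSP70 and the most abundant on the list, ranged in wild type over 463 to 572 CPM (young) and 596 to 666 CPM (old) without overlap, and in knock-out over 479 to 641 CPM (young) and 602 to 676 CPM (old) with overlap. Its log2 fold changes were 0.26 ± 0.14 and 0.13 ± 0.14 (adjusted p = 0.455 and 0.81 in edgeR).

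The chaperones and folding enzymes of the endoplasmic reticulum went the other way in wild type, where 19 of 23 had a negative log2 fold change with age (median -0.13), and not in knock-out, where 16 of 23 were positive (median 0.11). Their summed level in wild type was 8266, 8712 and 9338 CPM (young) and 8126, 6602 and 8071 CPM (old). In knock-out it was 7188, 8807 and 7476 CPM (young) and 6891, 9796 and 7977 CPM (old). The knock-out ages thus overlapped, with old knock-out 1 below every young knock-out library and old knock-out 2 above. The interaction was positive for 20 of 23 with a median of 0.23, beside 0.01 over all tested genes, and none of the 23 passed for it in edgeR, DESeq2 or limma-voom, with 0 at an unadjusted p under 0.05. Serpinh1, a collagen chaperone and the most abundant of them, went from 1995 ± 148 CPM (young) to 1431 ± 217 CPM (old) in wild type (log2 fold change -0.48 ± 0.20, adjusted p = 0.283 in edgeR) and from 1609 ± 406 to 1570 ± 305 CPM in knock-out (-0.04 ± 0.20). Fibroblast and fibro-adipogenic markers had a summed level of 9896 to 12150 CPM in the young and 5454 to 6587 CPM in the old wild-type libraries, with 4 of 12 past the test, all lower, and none at 0. Their part in the values of the endoplasmic reticulum genes was not tested.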
